A study of Danio rerio with 6 samples.

Results

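The macrophage marker genes mfap4, mpeg1.1, csf1ra, marco, havcr1, lgals9l1, c1qa, c1qb and c1qc were followed in sorted blood progenitors of zebrafish (Danio rerio). They were matched to the gene IDs of the deposited count tables by zebrafish symbol, or by the capital form of the symbol where only that was listed, and every ID with a shared symbol was kept. The 9 names gave 25 of the 32520 gene IDs: 15 for the mfap4 family, 3 listed as MPEG1, and 1 for each of the other 7 names. The name table does not say which of the 3 MPEG1 IDs is mpeg1.1.

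The study has 3 RNA-seq libraries of blf-/-;drl 4KO cells and 3 of control cells, all from embryos at 20 h post fertilization (hpf). The cells expressed red fluorescent protein (RFP) from a gene-trap allele of blf, were released with Liberase and were sorted by flow cytometry, 30000 cells to a library. Both blf and drl (draculin) code for zinc finger proteins made in early blood mesoderm. The blf-/-;drl 4KO embryos are labelled as mutant for blf and for drl genes, whereas the controls carry blf-/- in the sample genotype field and blf+/- in the series design. RFP is thus read from the locus that differs, or may differ, between the groups. Nothing in the labels says that replicates are separate clutches or separate sorts. The p-values therefore cover the spread among these libraries alone, and part or all of that spread may be technical.

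Macrophages are phagocytes that engulf microbes and dying cells. In zebrafish the first of them arise from anterior mesoderm, migrate over the yolk and later seed tissues such as the brain. Their identity depends on the transcription factor PU.1 (Spi1) and on Irf8, and their spread and survival on the receptor Csf1r and its ligands. Of the markers, mfap4 genes encode secreted proteins with a fibrinogen-like domain and mpeg1.1 encodes perforin-2, a pore-forming protein of phagocytes. marco encodes a scavenger receptor that binds bacteria, and havcr1 a receptor of the TIM family, which bind phosphatidylserine on dying cells in mammals. lgals9l1 encodes a galectin, a lectin that binds galactosides. c1qa, c1qb and c1qc encode the chains of C1q, the recognition molecule of the classical complement pathway, and in mammals macrophages are a main source of all 3 chains.

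Total counts ran from 12751618 to 18101975 per library. The drl genes followed the labels: drl averaged 0.151 CPM (a read count scaled to a fixed library size and corrected for library composition with TMM factors) in the blf-/-;drl 4KO libraries and 585 CPM in the controls, and drll.1, drll.2 and drll.3 were likewise below 1 CPM on average in the blf-/-;drl 4KO group. blf averaged 81.2 CPM in blf-/-;drl 4KO libraries and 2644 CPM in the controls, so the controls did not show the low blf level of the other group, although their sample genotype field also reads blf-/-. Erythroid genes, which mark the main product of these progenitors, fell in 14 of 15 tested cases and rose in 0 (median log2 fold change -3.08). Of all tested genes 9.92% fell and 13% rose. Among the erythroid genes that fell were SPTB, the red cell beta spectrin, and alas2, the first heme enzyme of red cells. Replicates differed by more than sampling noise, with a chi-square per degree of freedom between 41.4 and 45.7 in the blf-/-;drl 4KO group and between 19.9 and 24.8 in the controls. All fold changes are blf-/-;drl 4KO over control from edgeR's quasi-likelihood test on all 14517 genes that passed its filter on low counts, with Benjamini-Hochberg adjusted p and a threshold of 0.05.

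Most of the macrophage markers with enough reads to test rose in the blf-/-;drl 4KO cells, and several others were close to undetected in both groups. Of the 25 IDs, 19 passed the filter, and of these 14 rose, 0 fell and 5 did not pass the threshold. Among all tested genes 13% rose and 9.92% fell. Of all calls 56.7% were higher, or 71.5% where counts were scaled by library totals alone. The median log2 fold change was 2.51 over the 19 tested IDs and 0.11 over all tested genes, against 2.84 and 0.42 with library totals. In 18 of the 19 the blf-/-;drl 4KO libraries were all above the controls, as they were for 22.7% of all tested genes, and in 0 all below, against 19.8% of all tested genes. Since 5 of the 19 averaged under 5 CPM in the controls and could pass the filter through the other group, the count was also taken over those at or above that level. There 11 of 14 rose and 0 fell, against 13.5% and 16.0% of all genes at that level, with a median of 2.39 for the markers and -0.26 for all such genes. Of the 19 tested IDs 13 were mfap4 copies, as were 11 of the 14 at that level. Copies of a family may share reads, so these counts do not stand for as many separate markers. Of the 6 other tested IDs 4 rose and 0 fell (median 2.76), and 3 of the 6 averaged at least 5 CPM in the controls. Among the 4 were marco and c1qb, which averaged 0.913 and 0.074 CPM in the controls and passed the filter through the other group.

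The summed level of all 25 IDs was 9637, 9023 and 7954 CPM in blf-/-;drl 4KO replicates 1, 2 and 3, against 1420, 1638 and 1612 CPM in control replicates 1, 2 and 3. The groups did not overlap, and the ratio of means was 5.70. The exact two-sided permutation p was 0.1, the smallest that 3 libraries against 3 can give. In shares of the raw counts this was 0.986% ± 0.112 of a blf-/-;drl 4KO library and 0.139% ± 0.00143 of a control library (SD, n = 3 each). In bulk libraries, more macrophages among the sorted cells and more macrophage RNA per cell cannot be told apart.

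**Figure D1:**
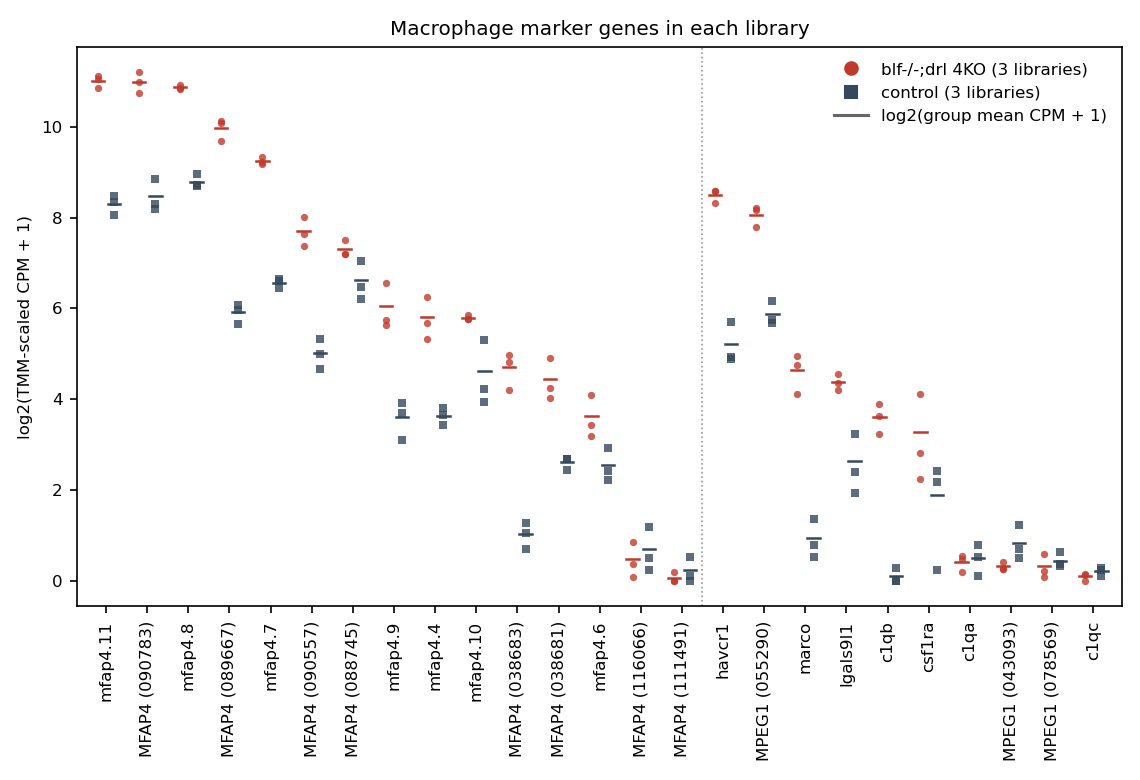
Level of each of the 25 gene IDs as log2(CPM + 1), with TMM-scaled CPM. Circles are the 3 blf-/-;drl 4KO libraries, squares the 3 control libraries, and bars the log2 of the group mean plus 1. Capital symbols carry the last digits of their Ensembl ID, and the dotted line parts the mfap4 family on the left from the other markers. The groups separate for 18 of the 19 tested IDs, while 6 IDs lie near 0 in both groups.

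The mfap4 family made up most of the signal. Its 15 IDs held 92.2% of the summed marker counts in the blf-/-;drl 4KO libraries and 93.3% in the controls. The RefSeq gene table of another build (GRCz12tu) lists 13 mfap4 genes within a run of 26 neighbouring protein-coding genes, so they form a tandem family whose copies may share reads. The counting of reads that map to several copies is not given in the labels, and single copies are therefore uncertain. Of the 13 copies tested 10 rose, 0 fell and 3 did not pass the threshold, where 13% of all tested genes rose and 9.92% fell. MFAP4 (ENSDARG00000038683), among the 10, averaged 1.04 CPM in the controls and could pass the filter through the other group.

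The copy with the smallest p was MFAP4 (ENSDARG00000089667). It stood at 1082, 1121 and 823 CPM in blf-/-;drl 4KO libraries, against 66.6, 61.5 and 49.8 CPM in the controls. Its groups did not overlap, with a log2 fold change of 4.09 (SE 0.20, adjusted p = 3.67e-07, edgeR). A copy with few reads, MFAP4 (ENSDARG00000038683), had a fold change of the same order: it was at 17.5, 30.3 and 27.2 CPM in blf-/-;drl 4KO libraries, against 1.41, 1.07 and 0.637 CPM in the controls (log2 fold change 4.57, SE 0.72, adjusted p = 0.00115, edgeR).

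The 4 copies described next had log2 fold changes between 2.08 and 2.71. mfap4.11 was at 2226, 2125 and 1844 CPM in blf-/-;drl 4KO libraries, against 266, 325 and 357 CPM in the controls (log2 fold change 2.71, SE 0.16). MFAP4 (ENSDARG00000090783) was at 2345, 2022 and 1715 CPM in blf-/-;drl 4KO libraries, against 291, 459 and 315 CPM in the controls (log2 fold change 2.51, SE 0.20). mfap4.8 was at 1937, 1862 and 1819 CPM in blf-/-;drl 4KO libraries, against 413, 417 and 494 CPM in the controls (log2 fold change 2.08, SE 0.14). In each of these copies the groups did not overlap, and adjusted p was between 1.24e-06 and 8.72e-06 (edgeR). mfap4.7, with a log2 fold change of 2.70 (SE 0.16), was of the same kind, at 649, 599 and 578 CPM in blf-/-;drl 4KO libraries and 86.5, 95.7 and 98.9 CPM in the controls.

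A further 4 copies, all with fewer reads, also rose. MFAP4 (ENSDARG00000090557) had a log2 fold change of 2.72 (SE 0.27), mfap4.9 of 2.54 (SE 0.43) and mfap4.4 of 2.26 (SE 0.41), with adjusted p of 4.85e-05, 0.00167 and 0.0026 (edgeR). MFAP4 (ENSDARG00000038681) was at 28.9, 18.0 and 15.4 CPM in blf-/-;drl 4KO libraries, against 4.44, 5.44 and 5.46 CPM in the controls. Its groups did not overlap, but its call (log2 fold change 2.02, SE 0.62, adjusted p = 0.038, edgeR) had the largest adjusted p of the 14. The call was lost without any 1 of 5 libraries, with adjusted p of 0.149 without blf-/-;drl 4KO replicate 1, 0.0677 without replicate 2 of that group, and 0.1, 0.0827 or 0.085 without control replicate 1, 2 or 3 (edgeR).

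The 3 copies that did not pass the threshold were higher in every blf-/-;drl 4KO library. MFAP4 (ENSDARG00000088745) was at 146, 180 and 145 CPM in blf-/-;drl 4KO libraries, against 131, 73.2 and 87.2 CPM in the controls, where replicate 1 came close to the other group (log2 fold change 0.69, SE 0.25, adjusted p = 0.0726, edgeR). It passed in 4 of 14 other fits, among them without control replicate 1 (log2 fold change 0.91, adjusted p = 0.0294, edgeR) and with DESeq2 (adjusted p = 0.0357). mfap4.10 was at 53.5, 53.5 and 56.6 CPM in blf-/-;drl 4KO libraries, against 14.3, 17.7 and 38.3 CPM in the controls (log2 fold change 1.22, SE 0.42, adjusted p = 0.0585, edgeR). Here control replicate 3 stood above the other two, and without it mfap4.10 passed (log2 fold change 1.73, adjusted p = 0.0191, edgeR). With all libraries kept, mfap4.10 also passed with library totals (adjusted p = 0.0184, edgeR), DESeq2 (0.0415), limma-voom (0.0286), no filter on low counts and a filter of 10 CPM. mfap4.6 was at 16.0, 9.79 and 8.18 CPM in blf-/-;drl 4KO libraries, against 6.59, 3.63 and 4.37 CPM in the controls (log2 fold change 1.22, SE 0.76, adjusted p = 0.278, edgeR). Of 13 other fits it passed only with DESeq2 (adjusted p = 0.0208). The last 2 copies were not tested for lack of reads: MFAP4 (ENSDARG00000116066) had 22 reads over the blf-/-;drl 4KO group and 24 over the controls, and MFAP4 (ENSDARG00000111491) had 3 and 7 reads.

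The make-up of the family was read as the share of its reads that each copy took. MFAP4 (ENSDARG00000089667) took 12.2%, 13.4% and 11.3% of all mfap4 reads in the blf-/-;drl 4KO libraries, against 5.02%, 4.03% and 3.31% in the controls. MFAP4 (ENSDARG00000088745) took 1.64%, 2.16% and 1.99% in the blf-/-;drl 4KO libraries, against 9.86%, 4.80% and 5.80% in the controls. mfap4.8 took 23.0% ± 1.68 of the reads in the blf-/-;drl 4KO libraries and 30.5% ± 2.85 in the controls, while MFAP4 (ENSDARG00000090783) had nearly the same share, 24.7% ± 1.49 and 24.3% ± 4.99 (SD, n = 3 each). Of the 15 shares, 10 did not overlap between the groups, 4 higher and 6 lower in the blf-/-;drl 4KO libraries. The shares make up a whole, so a higher share of some copies lowers that of others. Among the 6 lower was MFAP4 (ENSDARG00000116066), which had only 22 reads over the blf-/-;drl 4KO group and 24 over the controls. Each of the 10 shares without overlap had an exact two-sided permutation p of 0.1, the smallest that 3 libraries against 3 can give, so no share could pass. Counted as 1 gene, the family had a log2 fold change of 2.50 (SE 0.12, adjusted p = 4.07e-07, edgeR). Of the 7 markers then tested 5 rose, beside 13% of all tested genes higher and 9.92% lower in the reported test. Of the 7, marco and c1qb averaged 0.913 and 0.074 CPM in the controls, so they passed the filter through the other group.

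**Figure D2:**
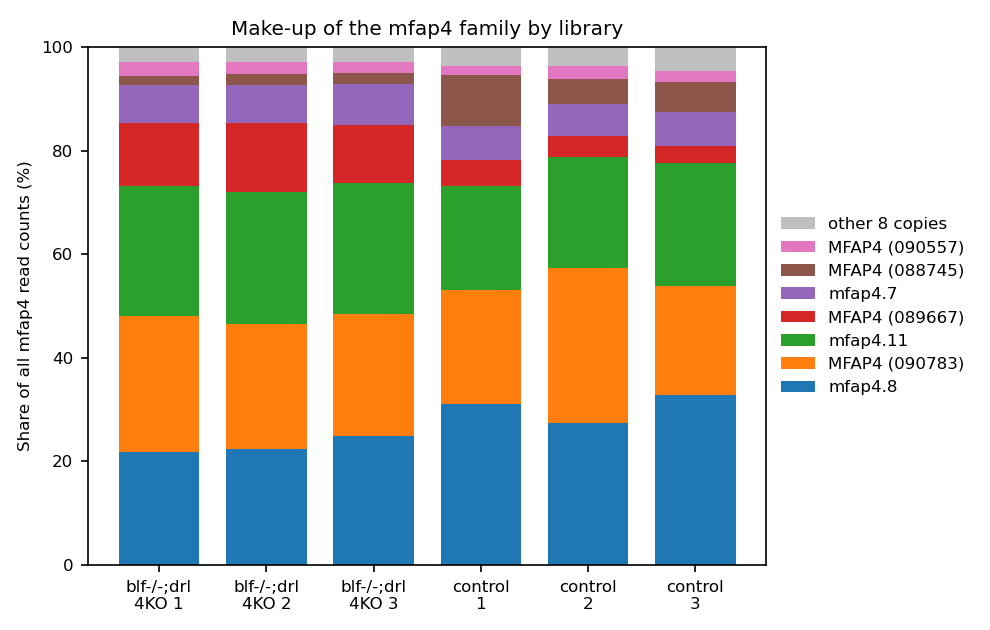
Share of all mfap4 read counts held by each copy in each library, in percent, not divided by gene length. Bars are libraries, with the 7 copies with the largest mean share drawn one by one and the other 8 together. MFAP4 (ENSDARG00000089667) took 11.3% to 13.4% in the blf-/-;drl 4KO libraries and 3.31% to 5.02% in the controls, and MFAP4 (ENSDARG00000088745) the reverse, 1.64% to 2.16% and 4.80% to 9.86%.

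Among the MPEG1 genes a single ID was expressed. MPEG1 (ENSDARG00000055290) was at 293, 285 and 222 CPM in blf-/-;drl 4KO libraries, against 50.3, 70.8 and 52.2 CPM in the controls, without overlap (log2 fold change 2.21, SE 0.23, adjusted p = 5.68e-05, edgeR). The other two were too low to test. MPEG1 (ENSDARG00000043093) had 13 reads over the blf-/-;drl 4KO group and 30 over the controls, of which 18 came from control replicate 1. After scaling the ratio was 0.301 (95% exact binomial interval 0.144 to 0.595, counting error only). MPEG1 (ENSDARG00000078569) had 14 and 13 reads, a ratio of 0.748 (0.326 to 1.73).

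Of the 3 surface receptors among the markers, havcr1 and marco rose. havcr1, the TIM family receptor, was at 385, 317 and 384 CPM in blf-/-;drl 4KO libraries, against 28.4, 29.5 and 50.8 CPM in the controls. The groups lay far apart (log2 fold change 3.32, SE 0.27, adjusted p = 9.45e-06, edgeR). marco, the scavenger receptor, was at 29.8, 25.8 and 16.3 CPM in blf-/-;drl 4KO libraries, against 0.444, 1.57 and 0.728 CPM in the controls. It was close to undetected in the controls, with 33 reads in all, and the groups did not overlap (log2 fold change 4.71, SE 0.79, adjusted p = 0.00174, edgeR).

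csf1ra, the receptor for macrophage colony-stimulating factor, did not pass. It was at 6.08, 16.4 and 3.69 CPM in blf-/-;drl 4KO libraries, against 3.55, 4.37 and 0.182 CPM in the controls. The groups overlapped, blf-/-;drl 4KO replicate 2 was the highest and control replicate 3 the lowest (log2 fold change 1.68, SE 1.14, adjusted p = 0.321, edgeR), and none of 13 other fits passed it (adjusted p of at least 0.171). In zebrafish csf1ra is also used by yellow pigment cells and their precursors, so pigment cell genes were read beside it. Of 11 pigment cell IDs 4 were tested and 0 passed in either direction. Their summed level ran from 11.7 to 26.8 CPM in blf-/-;drl 4KO libraries and from 5.46 to 21.4 CPM in the controls. gch2, a gene of yellow pigment cells, was at 4.48, 7.47 and 0.528 CPM in blf-/-;drl 4KO libraries, against 2.15, 11.5 and 1.27 CPM in the controls, a level like that of csf1ra and with overlap. MITF (ENSDARG00000003732), a pigment cell factor, was at 18.2, 12.7 and 7.26 CPM in blf-/-;drl 4KO libraries, against 1.11, 5.94 and 0.455 CPM in the controls, without overlap (log2 fold change 2.34, SE 1.03, adjusted p = 0.129, edgeR). It passed with limma-voom (adjusted p = 0.0346) and without control replicate 2 (log2 fold change 4.02, adjusted p = 0.0399, edgeR). Of the black and silvery pigment cell genes, TYR, DCT, TYRP1 and pnp4a were below 1 CPM in every library. pmela, another pigment cell gene, was at 0.553, 0.849 and 0.66 CPM in blf-/-;drl 4KO libraries, against 1.33, 2.47 and 1.18 CPM in the controls. It was lower without overlap but did not pass (log2 fold change -1.27, SE 0.757, adjusted p = 0.26, edgeR). The part of pigment cells in the csf1ra values was not tested.

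lgals9l1, the galectin, was at 17.5, 22.4 and 19.3 CPM in blf-/-;drl 4KO libraries, against 8.44, 4.29 and 2.82 CPM in the controls. The groups did not overlap, yet the difference missed the threshold (log2 fold change 1.93, SE 0.67, adjusted p = 0.0607, edgeR). It passed in 4 of 14 other fits, with adjusted p of 0.0376 for scaling by library totals, 0.0405 for limma-voom, 0.000289 for DESeq2 and 0.0382 for a filter of 10 CPM.

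Of the 3 C1q chain genes c1qb alone had enough reads to test, and it rose. c1qb had 277, 149 and 173 reads in the blf-/-;drl 4KO libraries, against 3, 0 and 0 reads in the controls. That is 13.9, 8.43 and 11.4 CPM in blf-/-;drl 4KO libraries, and the ratio of scaled reads was 139 (95% exact binomial interval 47.3 to 675, counting error only, adjusted p = 0.00423, edgeR). c1qa had 3, 8 and 6 reads in the blf-/-;drl 4KO libraries, against 6, 1 and 8 in the controls, a ratio of 0.788 (0.370 to 1.69). c1qc had 2, 2 and 0 reads in the blf-/-;drl 4KO libraries, against 3, 1 and 2 in the controls, a ratio of 0.463 (0.0962 to 1.95). Both of these intervals include 1, so no difference was detectable at this depth. Both also end below the 5.70-fold ratio of the summed markers and below the interval of c1qb, with counting error alone considered. c1qb, c1qc and c1qa are 3 consecutive protein-coding genes in the RefSeq gene table.

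**Figure D3:**
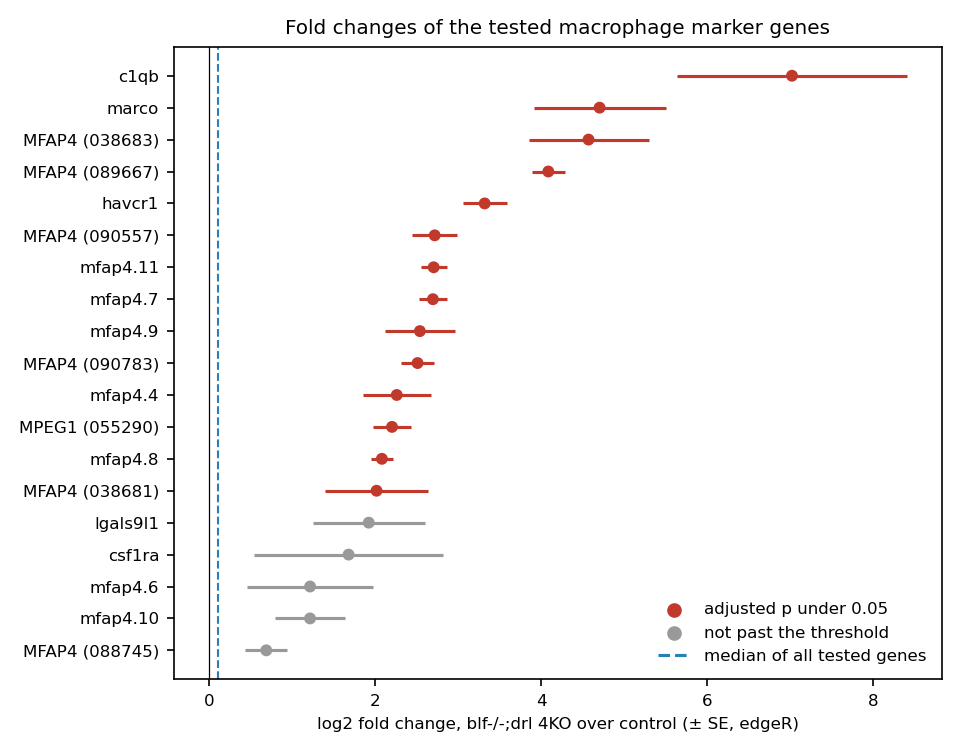
Log2 fold change of the 19 tested IDs, blf-/-;drl 4KO over control, with the SE from edgeR as a bar. Red points passed an adjusted p of 0.05 and grey points did not. The dashed line is the median of all 14517 tested genes (0.11, but below 0 with DESeq2, without a filter and with a filter of 10 CPM). The values run from 0.69 for MFAP4 (ENSDARG00000088745) to 7.02 for c1qb, whose controls held 3 reads in all, so that its fitted value depends on the prior count. Without control replicate 1, which held all 3 reads, it was 10.4.

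The ligands of the Csf1 receptors were measured beside csf1ra. csf1a, a macrophage colony-stimulating factor, was at 16.2, 10.6 and 11.0 CPM in blf-/-;drl 4KO libraries, against 1.04, 0.742 and 0.182 CPM in the controls (log2 fold change 4.24, SE 0.99, adjusted p = 0.0103, edgeR). il34, the second ligand of Csf1r, was at 24.7, 45.8 and 49.2 CPM in blf-/-;drl 4KO libraries, against 3.85, 8.74 and 15.6 CPM in the controls (log2 fold change 2.09, SE 0.58, adjusted p = 0.0232, edgeR). The call of il34 was lost without blf-/-;drl 4KO replicate 2 (adjusted p = 0.069) or 3 (0.0774), or without control replicate 1 (0.069) or 2 (0.0928). The paralog receptor csf1rb was at 5.03, 21.1 and 7.72 CPM in blf-/-;drl 4KO libraries, against 4.81, 0.247 and 0.728 CPM in the controls, and did not pass (log2 fold change 2.54, SE 1.17, adjusted p = 0.145, edgeR). It passed with DESeq2 (adjusted p = 0.0329) and without control replicate 1 (log2 fold change 4.47, adjusted p = 0.0439, edgeR). csf1b averaged 0.157 CPM in blf-/-;drl 4KO libraries and 0.321 CPM in the controls and was not tested. Of the 3 tested genes of this axis 2 rose and 0 fell, beside 13% and 9.92% of all tested genes, and 1 rose without blf-/-;drl 4KO replicate 2 or 3 or without control replicate 2. Of these 3 genes il34 alone averaged at least 5 CPM in the controls, so csf1a passed the filter on low counts through the other group.

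Transcription factors of macrophages and other myeloid cells also rose, in 8 of 15 tested cases with 0 lower (median log2 fold change 2.22). Over all tested genes 13% rose and 9.92% fell. IRF8, which directs myeloid cells to the macrophage fate in zebrafish, averaged 115 ± 24.2 CPM in blf-/-;drl 4KO libraries and 7.0 ± 3.07 CPM in the controls (SD, n = 3 each), with a log2 fold change of 4.04 (adjusted p = 4.08e-05, edgeR). SPI1 (log2 fold change 2.22, SE 0.19) and CEBPB (2.28, SE 0.17) were past the threshold too. Of a further list of macrophage and leukocyte genes 33 of 37 tested members rose and 0 fell (median 2.2). Among them were the leukocyte plastin LCP1 (log2 fold change 2.39), the cathepsin S gene ctss2.1 (3.60), the Fc receptor chain fcer1gl (2.64) and the lysozyme-family gene lygl1 (2.89). Antigen-presentation genes cd74a and cd74b and the cytokine gene tnfa, all in that list, were below 1 CPM in every library.

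Beside 13% of all tested genes higher and 9.92% lower, genes of engulfment rose in 7 of 16 tested cases and fell in 0 (median log2 fold change 2.12). The number that rose was 4 without control replicate 2. The 4 of smallest p were ELMO1 (1.57), which relays the signal to the cytoskeleton, MFGE8 (3.09), a bridge to phosphatidylserine, the clearance receptor stab2 (1.57) and the receptor kinase mertka (3.41). The TIM paralogs of havcr1, timd4 and havcr2, did not pass: timd4 was at log2 fold change 3.29 (adjusted p = 0.0713, edgeR) and havcr2 at 2.62 (adjusted p = 0.113). Scavenger receptors other than marco rose in 4 of 6 tested cases and fell in 0 (median 1.84), and these were scarb2a (1.28), mrc1b (3.75), COLEC12 (2.39) and SCARF1 (2.65). SCARF1 lost its call without blf-/-;drl 4KO replicate 1 (adjusted p = 0.0547) or 3 (0.0688), or without control replicate 1 (0.088). Members such as mrc1b were near 0 in the controls, so these counts include genes that passed the filter through the other group.

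Complement and galectin genes beyond the markers were counted in the same way, beside 13% of all tested genes higher and 9.92% lower. Of 13 tested complement genes 1 rose and 0 fell (median log2 fold change 0.42). This was cfd, the protease factor D of the alternative pathway, at 131, 116 and 121 CPM in blf-/-;drl 4KO libraries, against 0.370, 1.15 and 1.09 CPM in the controls (log2 fold change 7.14, SE 0.46, adjusted p = 2.46e-06, edgeR). The C1 proteases c1r, c1s.1 and c1s.2, which partner C1q, were below 1 CPM in every library. The next genes by p, serping1 (log2 fold change 1.52), cfh (1.57) and c5ar1 (-1.08), had adjusted p of 0.269, 0.396 and 0.451. Of 9 tested galectins other than lgals9l1, 3 rose and 0 fell (median 1.32): lgals3b (2.64), lgals9l3 (3.46) and lgals2a (1.53), the last not without control replicate 1 (adjusted p = 0.0768) or 3 (0.0714). lgals1l1 followed at 3.11 with adjusted p = 0.0707.

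The markers were then set against other leukocyte genes of the same library, since a ratio within a library does not depend on library scaling. The summed marker counts were 10.9, 10.3 and 11.6 times those of LCP1 in the blf-/-;drl 4KO libraries, against 10.2, 10.1 and 9.64 times in the controls, which is 1.09 times as high. Against the sum of the other macrophage and leukocyte genes, the ratio was 1.01 ± 0.0297 in the blf-/-;drl 4KO libraries and 0.743 ± 0.0421 in the controls (SD, n = 3 each), without overlap. For havcr1 alone the ratio to LCP1 was 0.452 ± 0.1 in the blf-/-;drl 4KO libraries and 0.230 ± 0.0647 in the controls, 1.97 times as high. For MPEG1 (ENSDARG00000055290) it was 0.326 ± 0.00453 in the blf-/-;drl 4KO libraries and 0.370 ± 0.0624 in the controls, with overlap (exact permutation p = 0.4). The havcr1 ratio and both ratios of the summed markers had an exact two-sided permutation p of 0.1, the smallest possible. After adjustment over the 25 ratios computed it was 0.156 for each.

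Neutrophil genes were read as markers of the other early phagocyte, again beside 13% of all tested genes higher and 9.92% lower. Of 12 tested neutrophil genes 8 rose and 0 fell (median log2 fold change 1.64), led by cfl1l (4.55) and npsn, a granule metalloprotease (2.32). Their summed level ran from 2286 to 3267 CPM in blf-/-;drl 4KO libraries and from 546 to 882 CPM in the controls. The ratio of the markers to the neutrophil sum was 2.95, 3.57 and 3.48 in the blf-/-;drl 4KO libraries, against 2.26, 3.0 and 1.83 in the controls, with overlap (exact permutation p = 0.2). Epidermal genes moved in the same libraries. Of 19 tested epidermal genes 12 rose and 0 fell (median 2.72). Among those that rose were the tight junction gene cldni (8.29) and the keratin gene krt4 (5.18). Only 8 of the 19 averaged at least 5 CPM in the controls, and cldni averaged 0.467 CPM there. The count thus includes genes that passed the filter on low counts through the other group. The epidermal sum ran from 2484 to 3202 CPM in blf-/-;drl 4KO libraries and from 261 to 386 CPM in the controls. Relative to that epidermal sum the markers were lower in the blf-/-;drl 4KO libraries, at 3.01, 3.45 and 3.2, against 3.68, 6.28 and 4.96 in the controls, without overlap. This ratio had an exact permutation p of 0.1, or 0.156 after adjustment. The part of other cell types in the marker values was not tested.

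**Figure D4:**
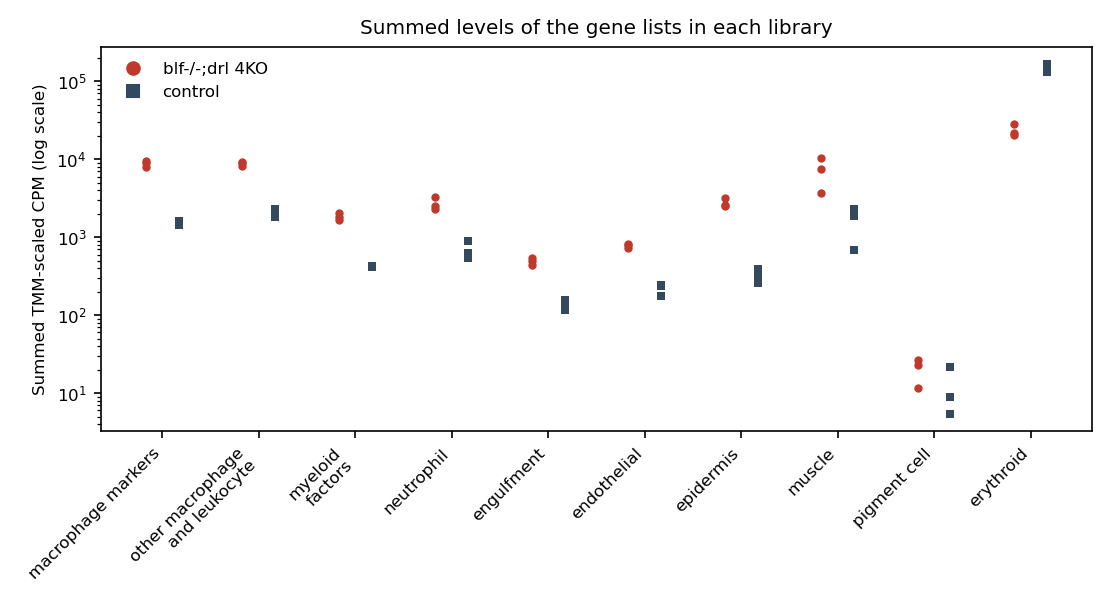
Summed TMM-scaled CPM of 10 gene lists in each library, on a log axis. Circles are blf-/-;drl 4KO libraries and squares control libraries. The macrophage markers lie between 7954 and 9637 CPM in blf-/-;drl 4KO libraries and between 1420 and 1638 CPM in the controls. Of the other 9 lists, pigment cell genes overlap between the groups, erythroid genes are lower in every blf-/-;drl 4KO library, and the remaining 7 are higher there in every library.

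Lists for other tissues were counted in the same fit, in which 13% of all tested genes rose and 9.92% fell. Of 16 tested endothelial genes 7 rose and 0 fell (median log2 fold change 1.53), led by ramp2 (3.01) and etsrp (2.31). FLI1, 1 of these 7, is counted again among the thrombocyte genes that rose. Of 17 muscle genes 9 rose and 0 fell (median 2.19), led by pvalb1, which did not pass with limma-voom (adjusted p = 0.113), and TTN (ENSDARG00000028213). Of 9 thrombocyte genes 3 rose, FLI1 and the THBS1 IDs, and 4 fell (median -1.11). Those that fell were gp9 (-4.14) and NFE2 (-3.45), lowest in p, GFI1B (-3.99) and GP1BB (-1.11). Of the thrombocyte genes 2 fell with library totals, without a filter on low counts, and without blf-/-;drl 4KO replicate 2, control replicate 2 or control replicate 3. Of 4 lymphoid genes 1 rose, ighm (3.15), and 0 fell (median 0.67), while RAG2 was at -1.06 with adjusted p = 0.374. Of 9 neural genes 2 rose and 1 fell (median 0.73). SOX3 (2.66) and GFAP (-2.75) were among these, and neither call was firm. SOX3 lost its call without any 1 of 5 libraries (adjusted p up to 0.0887, edgeR) and GFAP without any 1 of the 6 (adjusted p up to 0.12, edgeR). Yolk and hatching gland genes rose in 2 of 6 cases, CD63 (1.92) and foxa3 (4.34, adjusted p = 0.0579 without control replicate 2), and fell in 0 (median -0.08). The hatching gland gene he1.1 averaged 0.631 CPM in blf-/-;drl 4KO libraries and 0.651 CPM in the controls. Control means reached 5 CPM in 10 of 16 endothelial, 13 of 17 muscle and 8 of 9 thrombocyte genes. They did so in 1 of 4 lymphoid, 3 of 9 neural and 2 of 6 yolk and hatching gland genes. These counts thus include genes, such as foxa3 (0.983 CPM in the controls), that could pass the filter through the other group. Of 2 tested mast cell genes 0 passed (median -1.37), with GATA2 at -1.45 and KIT at -1.28, though GATA2 was lower with DESeq2 (adjusted p = 0.0106).

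The 8 genes whose levels over the 6 libraries were most like the mean marker profile were ctsla, SRGAP2B, myl6, CEBPB, PHLDA3, nppc, lamp3 and lpxn. Pearson's r with the mean centred log2(CPM + 1) of the tested markers was between 0.9971 and 0.9979, over 6 libraries that fall into 2 groups, so it mostly reflects the difference between the groups and is given as a description. ctsla, a cathepsin L gene, averaged 600 ± 32.3 CPM in blf-/-;drl 4KO libraries and 103 ± 9.07 CPM in the controls (SD, n = 3 each). PHLDA3, nppc and lamp3 averaged 91.2, 42.7 and 66.4 CPM in blf-/-;drl 4KO libraries and under 1 CPM in the controls. lpxn, a leukocyte paxillin relative, averaged 16.9 CPM in blf-/-;drl 4KO libraries and 1.06 CPM in the controls. That these genes are higher in the blf-/-;drl 4KO group follows from how they were chosen.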

How the data were processed

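RNA-seq counts were analysed for 6 libraries of sorted RFP+ cells, 3 blf-/-;drl 4KO and 3 control, grouped by their labels. The authors deposited raw read counts per Ensembl gene. Per the submitters' processing notes, the tools were HISAT2 2.2.1, featureCounts 1.6.0, SAMtools 1.10, FastQC 0.11.9 and bcl2fastq, with the GRCz11 build. Not given in the sources used here are the gene annotation's release, whether counting used strand, and how multi-mapping reads were handled. Totals of 12751618 to 18101975 counts per library and a biological coefficient of variation of 66.5% set the precision.

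Symbols from a table of gene names were matched to 29201 of 32520 IDs (89.8%). The markers and 18 further gene lists were chosen with earlier results of these data known. Of the 295 list symbols 34, such as mpx, had no match and were not analysed here. Counts were tested with edgeR 4.0.16 (quasi-likelihood, robust, filterByExpr, TMM) in R 4.3.3 over all genes that passed the filter, with no covariate and Benjamini-Hochberg adjustment. The SE is the absolute log2 fold change divided by the square root of F. Ratios of sparse counts carry 95% exact binomial intervals, and single values per library were tested by exact permutation. Profile likeness used log2(CPM + 1) and genes of at least 5 CPM on average.

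The text names every marker ID, the targeted genes, up to 4 genes of smallest p from each macrophage or phagocyte list, up to 2 from each other list, markers near 0, and the 8 genes most like the markers. Other genes (c1r, c1s.1, c1s.2, cd74a, cd74b, tnfa, timd4, havcr2, gch2, FLI1, THBS1, GFI1B and GP1BB) were chosen after their values were seen. A gene that the rule names is not reported here. The procedure was tested on simulated counts. Alternatives were DESeq2 1.42.0, limma-voom (limma 3.58.1), scaling by RLE factors or by library totals, 2 other filters on low counts, removal of globin and mitochondrial genes, a replicate block, leaving out each library, stricter thresholds and summing the mfap4 copies.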

Additional observations from a re-analysis of the deposited data

How the results depend on the processing

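The number of markers that rose was 14 in the reported test, between 13 and 18 under the other scalings, tests, filters and thresholds, and 13 or 14 with any 1 library left out, with 0 lower in each. With the mfap4 copies summed to 1 gene it was 5 of 7, with marco and c1qb of the 7 near 0 in the controls. Over all genes, calls numbered 1887 higher and 1440 lower. Library totals gave 959 lower, DESeq2 gave 3158 higher, and an adjusted p under 0.01 gave 969 higher and 769 lower, and the cause of the library-total and DESeq2 shifts was not tested. With 1 library left out the all-gene counts ran from 1342 to 1551 higher and from 868 to 1220 lower, the 868 without control replicate 2. Without any filter the counts were 2053 higher and 1021 lower, so 66.8% of calls were higher. The log2 ratio of the summed marker level was 2.51. It ran from 2.45 (RLE factors) to 2.83 (library totals) under other scalings and from 2.39 to 2.61 with 1 library left out, and it was 2.73 without the mfap4 copies. The replicate numbers in the labels did not pair the samples: deviations of same-numbered libraries correlated at 0.0064, -0.0402 and -0.0078 over genes. Fitted as a replicate block they gave 13 markers higher and 0 lower, 1651 and 1277 genes over all, and a summed log2 ratio of 2.51. MFAP4 (ENSDARG00000038681) lost its call there (adjusted p = 0.0907, edgeR). Of the single marker values under an alternative, 242 kept their side of the threshold, 15 passed it only there and 6 lost their call, all 6 for that MFAP4 gene. No tested marker or summed marker level changed direction, nor did any other named gene whose fold change was followed under the alternatives. The fold changes of genes chosen after their values were seen, such as gch2, timd4, havcr2 and FLI1, were not followed there. The median of all tested genes, 0.11, was -0.15 with DESeq2, -0.058 without a filter and -0.0017 with a filter of 10 CPM. Counts of calls over the other gene lists moved by over 1.5 times in 29 cases and did not in 475. The 475 include cases in which a count was 0 and stayed 0. Depth limited c1qa, c1qc, 2 MPEG1 genes and 2 mfap4 copies, which had too few reads to test.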
